A study of Rattus norvegicus with 4 samples.

Results

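Matrix metalloproteinases (MMPs) are zinc proteases that cut collagens, proteoglycans and other extracellular matrix proteins, and the tissue inhibitors of metalloproteinases (TIMPs) bind and block them. Transcripts of 10 genes, 7 MMPs and 3 TIMPs, were looked up by symbol in RNA sequencing counts from rat tendon stem/progenitor cells. The deposited table of 32623 genes held 9 of the 10, namely Mmp2, Mmp3, Mmp9, Mmp13, Mmp14, Mmp19, Timp1, Timp2 and Timp3, each in 1 row. No row carries the symbol Mmp11 (stromelysin-3), which was not analysed here. The cells, taken from tendon, received either DMSO, the solvent control, or U0126, a compound that blocks MEK, the kinase upstream of ERK. Each group has 2 libraries, labelled as biological replicates 1 and 2. The sources used here give no strain, age, passage, dose, exposure time or number of animals, so p-values measure the spread between these libraries only, and that spread may be technical.

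MMPs are made as inactive precursors. Stromelysins and serine proteases such as plasmin cut away the propeptide of many secreted MMPs. Furin-type convertases process others, among them the membrane-anchored ones, inside the cell. Mmp14 sits in the cell membrane and activates the precursor of Mmp2 there, with Timp2 as the bridge between them. Several MMP promoters carry sites for AP-1 and ETS transcription factors, which act downstream of ERK. In tendon, MMPs remodel the collagen matrix during growth, loading and repair.

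With U0126, the gelatinase Mmp2, its membrane activator Mmp14, and the inhibitors Timp2 and Timp3 rose. The stromelysin Mmp3, the gelatinase Mmp9, Mmp19 and the inhibitor Timp1 fell. Mmp13 did not pass the test. All 9 members passed the filter on low counts, and 8 were called by edgeR's quasi-likelihood test at an adjusted p under 0.05, 4 higher and 4 lower. Over all 14023 genes tested, 19.9% were called, 8.41% higher and 11.5% lower. In the same 8 members the groups did not overlap, as in 62.8% of all tested genes. The median log2 fold change was -0.51 over the 9 members, beside 0.02 over all tested genes. With 4 members higher and 4 lower, that median is the value of Mmp13, which was not called. Levels are given as CPM, counts relative to library size after TMM scaling between libraries, and, to compare genes with each other, as TPM, which also divides by gene length.

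Some of the calls depended on single libraries, which is visible in the plot of changes with one library left out. Without control replicate 1, 3 members were called (Mmp2, Mmp3 and Timp3), beside 6.32% of all genes. Without control replicate 2, 6 members were called, beside 6.24% of all genes. Without U0126 replicate 1 or U0126 replicate 2, 8 members were called each time, beside 22.8% and 32.1% of all genes. Each of the 9 members kept its direction in all 11 alternatives tried.

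**Figure D1:**
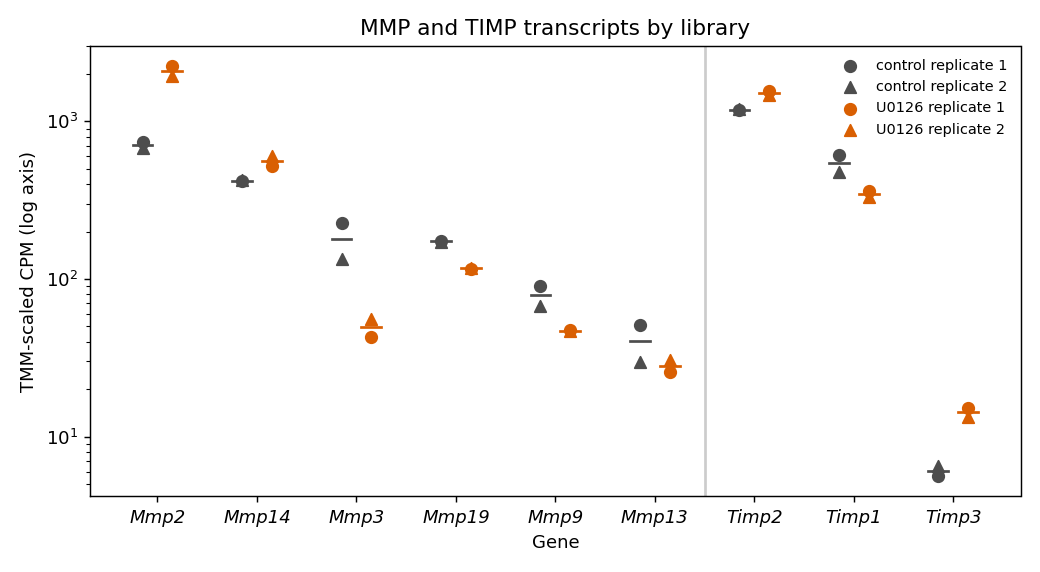
Level of each measured member in every library, in CPM scaled by TMM on a log axis. Circles are replicate 1, triangles replicate 2 and short lines the group means (grey for control, orange for U0126), with the TIMPs to the right of the vertical line. Of the 9 genes, Mmp13 alone has overlapping groups.

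Total counts ran from 36888913 to 42785190 per library. Counts of the members lay between 224 (Timp3, control replicate 1) and 84736 (Mmp2, U0126 replicate 1), so counting error alone is at most 6.68% (SD) of any of them. Of 10 transcripts that are induced through ERK, 5 were called lower with U0126 (Dusp5, Dusp6, Spry2, Phlda1 and Ccnd1) and 0 higher. Over all tested genes, 11.5% were called lower and 8.41% higher. Of the 5, Spry2 lost its call without control replicate 1 and Ccnd1 without either control. Without U0126 replicate 2 more of the 10 were called lower, and more of all genes were called too. Mitochondrial genes took 2.98% to 3.48% of counts in the controls and 4.82% to 5.64% with U0126, and the part of this shift in the results was not tested. Of 10 tendon fibroblast markers all had counts, summing to 37044 and 40325 CPM in the controls and 40960 and 43836 CPM with U0126. Col1a1 and Col3a1 were abundant, and Tnmd, a marker of mature tendon cells, was close to 0. Of these markers 5 were called higher (Scx, Col3a1, Fmod, Bgn and Dcn) and 2 lower (Tnc and Thy1). Without control replicate 1 the calls of Scx and Col3a1 were lost, and without control replicate 2 those of Scx and Dcn.

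Markers of other cell types moved too, and their part in the results was not tested. Those of skeletal muscle summed to 201 and 223 CPM in the controls and to 83.4 and 125.6 CPM with U0126, nearly all of it Acta1. All 4 tested muscle markers were called lower, Myod1 12.2-fold, Cdh15 3.53-fold, Des 2.95-fold and Acta1 1.99-fold, and Pax7 had 0 counts. Without control replicate 1 Des and Cdh15 lost their calls, and without control replicate 2 Acta1 and Cdh15 did. Those of chondrocytes summed to 1815 and 2049 CPM and to 708 and 919.6 CPM, nearly all of it Acan, which was called 2.42-fold lower. The collagens Col2a1 and Col10a1, at most 0.184 and 1.01 CPM in the controls, were called 15.6-fold and 8.13-fold higher, Sox9 was not called, and Matn1 had 0 counts. Those of endothelium stayed at or below 0.791 CPM, with Cdh5 at 0, and Tek, the one that passed the filter, was not called. In such bulk libraries fewer cells of one type and less RNA per cell cannot be told apart.

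The promoter sequences of 5 genes are shown. Among the MMPs the strongest falls, in Mmp12, Mmp10 and Mmp3, were in genes of the same block on chromosome 8, and their windows share motifs. Mmp13 is shown as a further gene of that block with counts. In the rn6 coordinates of the table, 9 listed MMP genes lie on chromosome 8 between 5522739 and 5901049, all on the plus strand. In this order they are Mmp13, Mmp12, Mmp3, Mmp1, Mmp10, Mmp8, Mmp27, Mmp20 and Mmp7. Mmp13, Mmp12, Mmp3 and Mmp10 had counts, and the other 5 had 0 counts in all 4 libraries. The windows run from 250 bases before to 50 bases after the RefSeq start (build GRCr8), and capitals mark matches to the AP-1 motif TGANTCA. Timp2, a gene that rose, is added as a window without a match. The windows of Timp1 and Mmp28, which were called lower, held no match either. Only exact matches were marked, and the Timp1 window holds TGAGTAA, a close variant that was not searched for. Mmp13, whose window is shown, was not called. No window was listed for Mmp2, Mmp9, Mmp14 or Mmp19.
Mmp3: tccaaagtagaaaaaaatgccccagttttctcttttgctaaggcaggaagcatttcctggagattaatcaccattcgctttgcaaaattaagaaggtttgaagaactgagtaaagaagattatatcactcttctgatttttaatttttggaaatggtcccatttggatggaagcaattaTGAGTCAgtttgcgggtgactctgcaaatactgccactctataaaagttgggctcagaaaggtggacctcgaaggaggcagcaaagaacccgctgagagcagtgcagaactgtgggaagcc
Mmp10: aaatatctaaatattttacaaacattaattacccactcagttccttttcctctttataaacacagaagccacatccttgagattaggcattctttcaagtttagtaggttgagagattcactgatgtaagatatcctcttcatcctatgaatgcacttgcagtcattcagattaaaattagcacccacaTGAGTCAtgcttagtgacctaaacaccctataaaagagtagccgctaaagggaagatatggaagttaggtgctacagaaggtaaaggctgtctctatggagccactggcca
Mmp13: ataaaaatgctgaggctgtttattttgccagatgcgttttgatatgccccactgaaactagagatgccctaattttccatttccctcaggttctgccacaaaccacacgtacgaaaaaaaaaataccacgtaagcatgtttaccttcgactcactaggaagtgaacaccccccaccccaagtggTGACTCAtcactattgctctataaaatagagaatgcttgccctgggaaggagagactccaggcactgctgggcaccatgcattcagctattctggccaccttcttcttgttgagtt
Mmp12: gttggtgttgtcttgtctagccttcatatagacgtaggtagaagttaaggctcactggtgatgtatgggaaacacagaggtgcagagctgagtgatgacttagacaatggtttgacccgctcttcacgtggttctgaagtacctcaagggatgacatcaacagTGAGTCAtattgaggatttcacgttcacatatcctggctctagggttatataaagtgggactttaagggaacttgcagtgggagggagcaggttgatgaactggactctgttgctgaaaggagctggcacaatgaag
Timp2: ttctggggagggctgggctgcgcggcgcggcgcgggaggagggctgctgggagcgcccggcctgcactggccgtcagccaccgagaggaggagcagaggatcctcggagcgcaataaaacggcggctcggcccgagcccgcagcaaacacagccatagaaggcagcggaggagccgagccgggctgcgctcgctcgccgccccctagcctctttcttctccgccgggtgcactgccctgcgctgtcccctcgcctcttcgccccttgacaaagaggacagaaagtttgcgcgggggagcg

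These windows are chr8:12925031-12925330 for Mmp3, chr8:12974457-12974756 for Mmp10, chr8:12782579-12782878 for Mmp13 and chr8:12866402-12866701 for Mmp12, all on the plus strand. The Timp2 window is chr10:104089165-104089464 on the minus strand. TGANTCA reads the same on both strands. It occurs at window bases 180 to 186 in Mmp3, 190 to 196 in Mmp10, 185 to 191 in Mmp13 and 164 to 170 in Mmp12. A TATAAA match on the plus strand follows in each, beginning at base 219, 218, 204 and 212. Over 33469 rat promoter windows of this length, 7.33% hold TGANTCA, 14.2% hold TATAAA on either strand, and 34.5% hold AGGAAG, a core bound by ETS factors, on either strand.

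Windows were listed for 6 of the 10 members and 14 of 16 further MMP and TIMP genes. TGANTCA occurred in 7 of the 9 windows on chromosome 8 and in 0 of the other 11, and TATAAA in 8 of the 9 and 1 of the 11. The 9 come from neighbouring genes of the same family and are not independent cases. The 7 included Mmp1, Mmp7 and Mmp20, which had 0 counts, so the letters do not separate the measured from the unmeasured genes of the block. AGGAAG, on either strand, occurred in 5 of the 9 windows on chromosome 8 and in 4 of the other 11. Among the members it occurred once each in Mmp3 and Mmp13 and at 2 places in Timp1. The windows of Timp2 and Timp3 held none of the 3 motifs and were 70.3% and 68.7% G or C. The median was 51.7% over all windows, and Mmp3 was at 42%. None of the 3 motifs occurred in Mmp11, Mmp15, Mmp23, Mmp24, Mmp27 or Mmp28 either. Of these, Mmp28, which was called lower, was 65% G or C. A match describes letters and is not evidence of binding, and the motifs were chosen after sequences and values had been seen.

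Mmp3, stromelysin-1, cuts proteoglycans and other matrix proteins and activates the precursors of further MMPs (chromosome 8, 5676665 to 5698579, rn6). Its level was 226 and 134 CPM in the controls and 43.05 and 55.6 CPM with U0126. Both treated libraries were low, and the controls differed from each other by 1.69 times. Mmp3 fell 3.66-fold (log2 fold change -1.87 ± 0.25 SE, n = 2 against 2, edgeR adjusted p = 0.00278). Its log2 fold change ran from -1.45 without control replicate 1 to -2.20 without control replicate 2, and the fall was called in all 11 alternatives. Over the series, 353 other genes that were called lower had a larger fall.

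Mmp10, stromelysin-2, is a close relative of Mmp3 and lies 2 genes further along the listed block. It is not among the 10 members. Its level was 29.1 and 19.3 CPM in the controls and 4.59 and 7.24 CPM with U0126, and it fell 4.09-fold (log2 fold change -2.03 ± 0.27 SE, edgeR adjusted p = 0.00291). By the distance between centred log2 CPM profiles over the 4 libraries, Mmp10 was also the gene most like Mmp3 among 9031 genes, at 0.305 against a median of 1.94. Stc1, stanniocalcin 1 (0.314), and Nsg1, a neuronal vesicle protein (0.392), came next. How the counting treated reads that match both stromelysins is not given in the sources used here.

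Mmp12, the elastase of macrophages, had 33 counts in the controls together and 0 with U0126. With the controls pooled and a floor of 3 counts over the U0126 group, Mmp12 was 9.80-fold lower. That value takes no account of the spread of the controls, which had 21 and 12 counts. The gene was called lower (edgeR adjusted p = 0.0230). Mmp12 was called in 8 of the 9 alternatives that gave a value, and the call was lost without control replicate 2. It did not pass the filter, and so was not tested, without control replicate 1. The same held with a filter of at least 1 CPM in at least 2 libraries. Of 8 macrophage markers 7 were in the table, and Ptprc, Cd163 and Aif1 had 0 counts in every library. The 7 summed to 3.45 and 3.51 CPM in the controls and to 1.61 and 0.497 CPM with U0126, the same direction as Mmp12, and Lyz2 was the most abundant of them in the controls. Adgre1 was called lower (edgeR adjusted p = 0.0315), and it lost that call without either control, without U0126 replicate 2, with the replicate block and with no filter. The part of such cells in the Mmp12 result was not tested.

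Mmp13, collagenase-3, opens the triple helix of fibrillar collagen and is the leading interstitial collagenase of rodents (chromosome 8, 5522739 to 5533018, rn6). Its level was 50.7 and 29.7 CPM in the controls and 25.5 and 30.7 CPM with U0126. Control replicate 1 stood above the other 3 libraries, and the groups overlapped. The log2 fold change was -0.51 ± 0.24 SE (edgeR adjusted p = 0.182), and it went from -0.08 without control replicate 1 to -0.85 without control replicate 2. Of the 11 alternatives, only the one without control replicate 2 passed (edgeR adjusted p = 0.0440, where the others ran up to 0.866).

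The gelatinases went in opposite directions. Mmp2, gelatinase A, cleaves denatured collagen and basement membrane collagen (chromosome 19, 15542765 to 15570611, rn6). Its level was 737 and 677 CPM in the controls and 2234 and 1943 CPM with U0126. Both treated libraries were far above both controls, and Mmp2 rose 2.95-fold (log2 fold change 1.56 ± 0.11 SE, edgeR adjusted p = 2.48e-04). The rise was called in all 11 alternatives, with log2 fold changes from 1.46 to 1.65. By level per length (TPM), Mmp2 moved from rank 372 of 32623 genes in the controls to rank 119 with U0126, and 232 other genes that were called higher had a larger rise.

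Mmp9, gelatinase B, is a secreted gelatinase known from neutrophils, macrophages and osteoclasts as well as from activated fibroblasts (chromosome 3, 161413298 to 161421520, rn6). Its level was 91.0 and 67.7 CPM in the controls and 47.2 and 46.9 CPM with U0126. The treated libraries nearly coincided, below both controls, and Mmp9 fell 1.69-fold (log2 fold change -0.75 ± 0.14 SE, edgeR adjusted p = 0.0119). Without control replicate 1 it was not called (edgeR adjusted p = 0.0977, where the alternatives ran from 4.37e-05 to 0.0977), with a log2 fold change of -0.53. The osteoclast genes Ocstamp, Dcstamp and Calcr had 0 counts in every library. Acp5 was at 7.67 and 6.11 CPM in the controls and 7.51 and 5.83 CPM with U0126, and was not called (edgeR adjusted p = 0.905). Ctsk, which fibroblasts also express, made up most of the 5 osteoclast markers, which summed to 169 and 156 CPM in the controls and to 321 and 249.9 CPM with U0126. Ctsk was called higher, but not without control replicate 2. The macrophage markers, described with Mmp12, summed to at most 3.51 CPM, and the part of such cells in the Mmp9 result was not tested.

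By the same profile distance, the 3 genes most like Mmp2 were Casp4, an inflammatory caspase (0.0411), the membrane transporter Slc16a12 (0.0707) and the matrix protein Abi3bp (0.112), against a median of 1.57. Their log2 fold changes were 1.53, 1.55 and 1.48. These likenesses rest on 4 libraries and mostly repeat the difference between the groups.

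Mmp14, also called MT1-MMP, is the membrane collagenase that activates the precursor of Mmp2 (chromosome 15, 33074441 to 33083655, rn6). Its level was 418 and 423 CPM in the controls and 521 and 599.6 CPM with U0126. Both treated libraries were above the closely matched controls, and Mmp14 rose 1.33-fold (log2 fold change 0.41 ± 0.10 SE, edgeR adjusted p = 0.0291). Mmp19 is a secreted protease that acts on basement membrane proteins (chromosome 7, 3216497 to 3224201, rn6). Its level was 174 and 172 CPM in the controls and 117 and 118 CPM with U0126. The replicates agreed within 1.01 times in either group, and Mmp19 fell 1.48-fold (log2 fold change -0.56 ± 0.08 SE, edgeR adjusted p = 0.00451). Both calls were lost without either control. Mmp14 then had edgeR adjusted p = 0.211 and 0.201 (range 0.00280 to 0.211 over the alternatives), and Mmp19 had 0.0730 and 0.0692 (range 9.82e-07 to 0.0730). Their log2 fold changes stayed at 0.40 and 0.42 for Mmp14, and at -0.55 and -0.57 for Mmp19.

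Timp1 inhibits most secreted MMPs and binds the precursor of Mmp9 (chromosome X, 1364786 to 1369384, rn6). Its level was 609 and 480.0 CPM in the controls and 363 and 331 CPM with U0126. Both treated libraries were below both controls, and Timp1 fell 1.57-fold (log2 fold change -0.65 ± 0.13 SE, edgeR adjusted p = 0.0140). Without control replicate 1 it was not called (edgeR adjusted p = 0.121, where the alternatives ran from 3.19e-05 to 0.121), with a log2 fold change of -0.47.

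Timp2 inhibits MMPs broadly and also links Mmp14 to the precursor of Mmp2 (chromosome 10, 107338465 to 107386072, rn6). Its level was 1179 and 1191 CPM in the controls and 1568 and 1480.0 CPM with U0126. The controls nearly coincided, below both treated libraries, and Timp2 rose 1.29-fold (log2 fold change 0.36 ± 0.09 SE, edgeR adjusted p = 0.0293). Without either control it was not called (edgeR adjusted p = 0.203 and 0.194, where the alternatives ran from 0.00206 to 0.203), at log2 fold changes of 0.35 and 0.37.

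Timp3 is the inhibitor that stays bound to the matrix and also blocks ADAM proteases (chromosome 7, 23544215 to 23594133, rn6). Its level was 5.65 and 6.48 CPM in the controls and 15.2 and 13.4 CPM with U0126. Both treated libraries were above both controls, and Timp3 rose 2.36-fold (log2 fold change 1.24 ± 0.16 SE, edgeR adjusted p = 0.00233). The rise was called in all 11 alternatives, with log2 fold changes from 1.14 to 1.34.

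The TIMP genes overlap other annotated genes. Timp1 lies within Syn1 and Timp3 within Syn3, both on the opposite strand, and Timp2 overlaps Cep295nl on its own strand. Whether the counting used strand is not given in the sources used here, so reads of such partners cannot be told apart. Syn1 had at most 56 counts per library and Cep295nl at most 22, and Syn3 had 0 throughout, against at least 11971 for Timp1 and 46778 for Timp2.

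**Figure D2:**
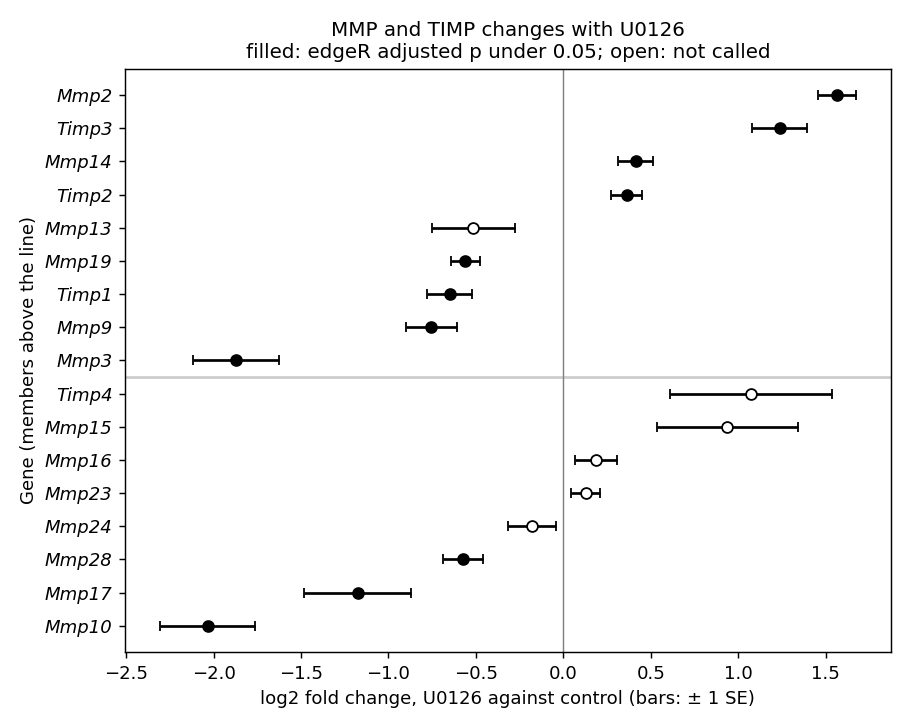
Log2 fold change of U0126 against control, with 1 SE either way, for the 9 measured members (above the line) and 8 further tested MMP and TIMP genes. Filled points were called by edgeR and open ones were not; Mmp12, at 0 in both treated libraries, is left out. Called changes run from -2.03 (Mmp10) to 1.56 (Mmp2).

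Levels per length show which members dominated. In the controls the deposited TPM was highest for Timp1 (1327 ± 188, SD, n = 2) and Timp2 (1283 ± 42.3), whose ranges overlapped. Mmp2 (414 ± 13.8), Mmp14 (311 ± 10.9) and Mmp3 (244 ± 77.4) followed, and Mmp14 and Mmp3 differed by less than the SD of Mmp3. Mmp19 was at 155 ± 2.67, Mmp9 at 45.3 ± 8.22 and Mmp13 at 27.6 ± 9.58, and Timp3 was lowest at 6.23 ± 0.774.

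With U0126 the order changed. Timp2 (1581 ± 50.6 TPM) came before Mmp2 (1173 ± 105) and Timp1 (812 ± 46.7), with no overlap between these. Mmp14 (397 ± 42.7) and Mmp19 (101 ± 1.77) came next, and Mmp3 fell behind Mmp19 to 62.0 ± 9.27. Mmp9 was at 25.8 ± 0.104, Mmp13 at 18.6 ± 2.57 and Timp3 at 14.1 ± 1.09.

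Summed over the 20 MMP genes found in the table, the deposited TPM was 1455 and 1316 in the controls and 1972 and 1904 with U0126. Over the 4 TIMP genes it was 2718 and 2513 in the controls and 2477 and 2338 with U0126. The MMP sum was therefore 0.535 and 0.524 of the TIMP sum in the controls and 0.796 and 0.814 of it with U0126. These sums count transcripts and not active enzyme, and they are given with no test. CPM does not divide by gene length. In CPM the sum over the 3 TIMP members was higher with U0126 (1946 and 1824) than in the controls (1794 and 1677).

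The make-up of the MMP sum shifted towards Mmp2. Mmp2 made up 29.1% and 30.7% of it in the controls and 63.3% and 57.7% with U0126. Mmp3 made up 20.5% and 14.4% of it in the controls and 2.81% and 3.60% with U0126. The Mmp14 share lay between 18.6% and 24.2% in all 4 libraries, with overlapping groups. Among the TIMPs, the share of Timp1 was 53.7% and 47.5% in the controls and 34.1% and 33.3% with U0126.

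Ratios between partners were taken within each library. The TPM of Mmp2 was 0.338 and 0.308 of that of Timp2 in the controls, and 0.772 and 0.711 of it with U0126. The TPM of Mmp2 was 1.40 and 1.27 times that of Mmp14 in the controls, and 3.40 and 2.57 times with U0126. The TPM ratio of Mmp9 to Timp1 lay between 0.0304 and 0.0350 in all 4 libraries, with overlapping groups.

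**Figure D3:**
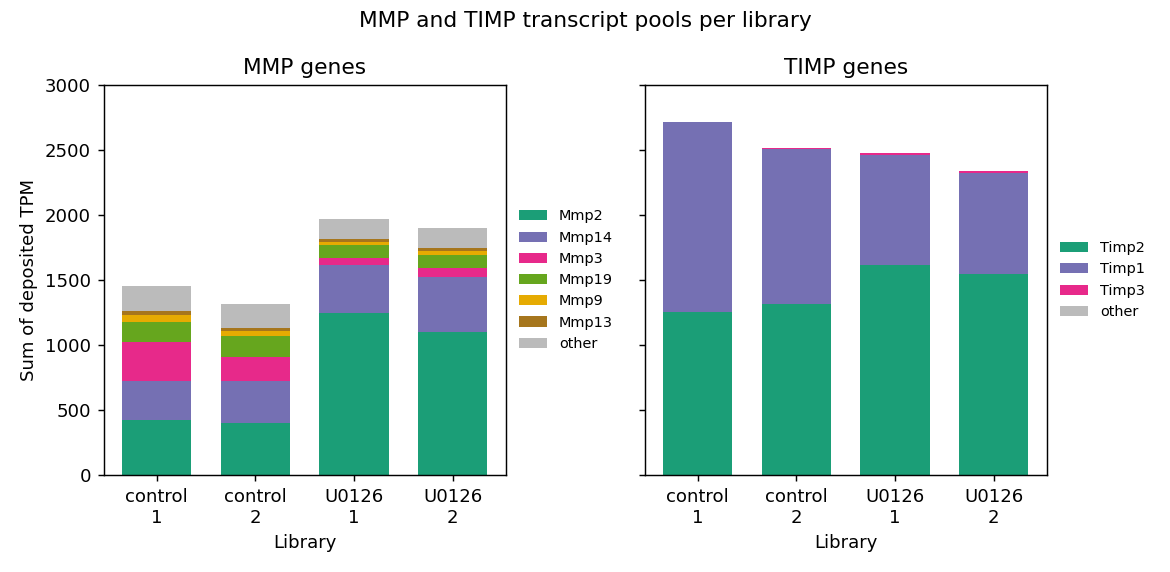
Deposited TPM summed over 20 MMP genes (left) and 4 TIMP genes (right) in each library, with coloured segments for the members and grey for the other genes. The MMP bars reach 1455 and 1316 in the controls and 1972 and 1904 with U0126, mostly through the Mmp2 segment, while Timp1 shrinks and Timp2 grows in the TIMP bars.

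**Figure D4:**
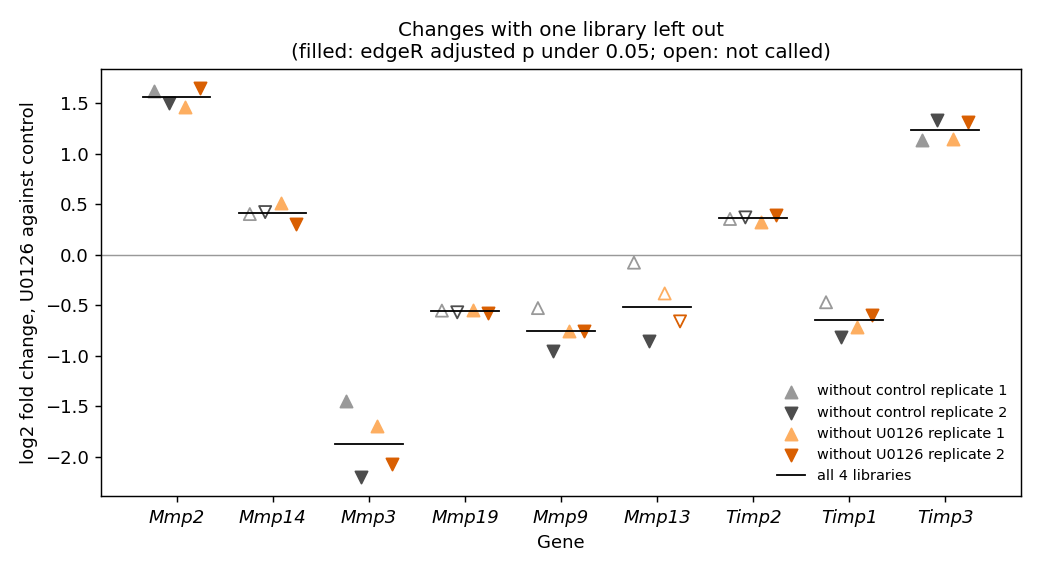
Log2 fold change of each member with 1 library left out (symbols) and with all 4 libraries (lines). Filled symbols were called by edgeR at an adjusted p under 0.05 and open ones were not. Mmp2, Mmp3 and Timp3 are filled throughout, Mmp14, Mmp19 and Timp2 are open without either control, and Mmp13 is filled only without control replicate 2.

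Of the 16 further MMP and TIMP genes listed, 15 were in the table and 9 were tested. None was called higher and 4 were called lower, the stromelysin Mmp10 and the elastase Mmp12 described above, Mmp17 and Mmp28. Of the 5 not called, only Mmp24 had a negative log2 fold change (-0.18). Timp4 and Mmp15 had 1.07 and 0.94 (edgeR adjusted p = 0.153 for each). Over all tested genes, 8.41% were called higher and 11.5% lower. The list had a median log2 fold change of -0.18. Mmp17, a membrane protease held by a lipid anchor, was at 8.55 and 11.004 CPM in the controls and 2.95 and 5.72 CPM with U0126 (edgeR adjusted p = 0.0373). Mmp28, epilysin, was at 24.7 and 25.5 CPM and at 17.4 and 16.3 CPM (edgeR adjusted p = 0.0138). Both calls were lost without either control. Leaving out either control left fewer genes of the list called, and fewer of all genes. Mmp23, the most abundant of the list, did not pass (107 ± 1.03 and 116 ± 0.325 CPM, SD, n = 2, edgeR adjusted p = 0.340).

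Genes that activate, bind or clear MMPs moved in part. Over the 15 genes reported, 5 were called higher and 10 were not called, with a median log2 fold change of 0.12. This stands beside 8.41% called higher and 11.5% called lower of all tested genes. The proprotein convertases Pcsk5 and Pcsk6, relatives of furin, rose. Pcsk5 was at 4.54 and 4.96 CPM in the controls and 37.6 and 24.7 CPM with U0126, a 6.55-fold rise (log2 fold change 2.71 ± 0.22 SE, edgeR adjusted p = 4.30e-04). Pcsk6 was at 24.9 and 25.4 CPM and at 86.1 and 79.7 CPM, a 3.29-fold rise (log2 fold change 1.72 ± 0.10 SE, edgeR adjusted p = 1.46e-04). Furin itself did not pass (-0.18 ± 0.10 on the log2 scale, edgeR adjusted p = 0.252).

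The endocytic receptors Lrp1, which clears MMPs and TIMPs, and Mrc2, which takes up collagen fragments, rose 1.36-fold and 1.45-fold. Serpine2, protease nexin-1, rose 1.52-fold. Reck, a membrane inhibitor of MMPs, had a log2 fold change of 0.00 ± 0.08 (edgeR adjusted p = 0.997). Lrp1 and Mrc2 lost their calls without either control, and Serpine2 without control replicate 2. As over all genes, fewer of this list were called without control replicate 2, and more, in both directions, without U0126 replicate 2.

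Among 16 AP-1 and ETS transcription factors, 4 were called lower, 1 higher and 11 neither, with a median log2 fold change of -0.29. Of all tested genes, 11.5% were called lower and 8.41% higher. The AP-1 subunit Fosl1 fell 2.60-fold, from 30.0 and 24.1 to 7.57 and 13.3 CPM (edgeR adjusted p = 0.0109). The ETS factors Etv1, Etv4 and Etv5 fell 5.09-fold, 3.97-fold and 1.59-fold, and the ETS factor Erg rose 15.03-fold from 2.85 and 2.69 to 58.6 and 24.6 CPM (edgeR adjusted p = 0.00111). Without U0126 replicate 1 the log2 fold change of Erg went from 3.91 to 3.15. Junb, the most abundant of the list, did not pass (261 ± 29.2 and 206 ± 54.5 CPM, SD, n = 2, edgeR adjusted p = 0.235). Fosl1 lost its call without control replicate 1, and Etv5 without either control. As over all genes, fewer of this list were called without control replicate 1, and more, in both directions, without U0126 replicate 2.

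**Figure D5:**
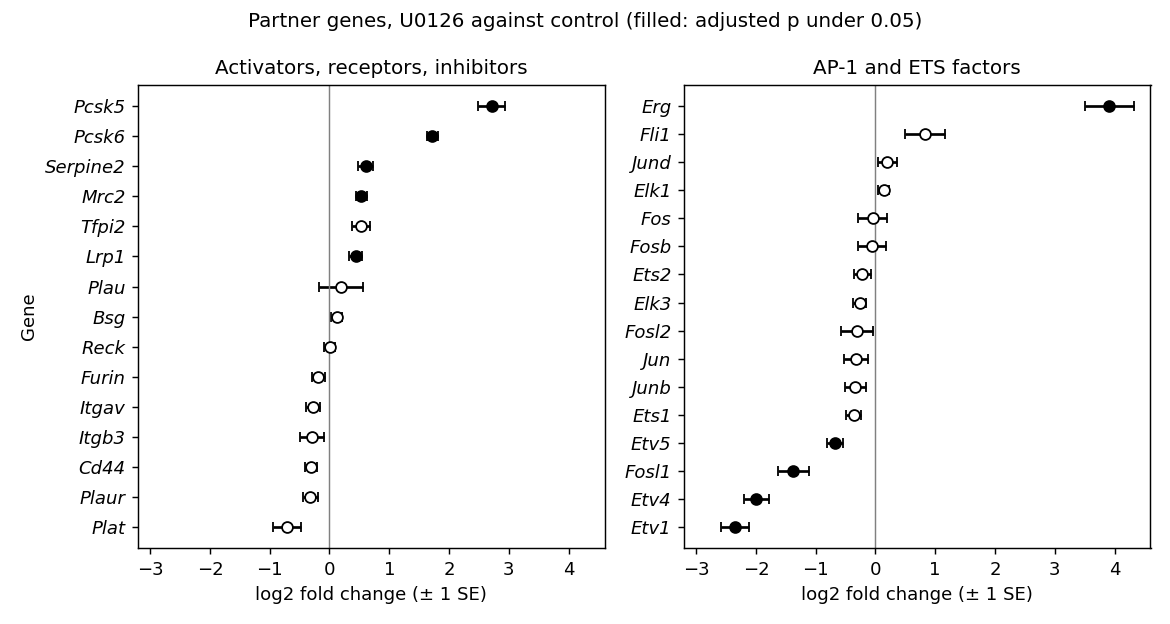
Log2 fold change of U0126 against control, with 1 SE either way, for 15 genes that activate, bind or inhibit MMPs (left) and 16 AP-1 and ETS factors (right). Filled points were called by edgeR at an adjusted p under 0.05 and open ones were not, and called values run from 0.44 (Lrp1) to 2.71 (Pcsk5) on the left and from -2.35 (Etv1) to 3.91 (Erg) on the right.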

How the data were processed

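The table the authors deposited lists each gene's count, TPM and FPKM in each library, per the file headers. The deposited counts are whole numbers that were not normalized. The TPM values, scaled by gene length and library by the authors, served only to compare levels between genes, and the 4 FPKM columns were not used. RNA was extracted with Trizol, per the labels' protocols, and the submitters' processing notes list rn6 as genome build. The sources used here name no aligner, counting program, strand setting or annotation. A header's letter and number tied its column to a sample title.

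Genes were filtered with filterByExpr (minimum count 10, minimum total 15), scaled by TMM and tested with edgeR's quasi-likelihood F test (two-sided, group as the only term). P-values were adjusted by Benjamini-Hochberg over all 14023 tested genes, with a threshold of 0.05. CPM uses the same scaling. Log2 fold changes carry a prior count of 0.125, and their SE is the absolute value divided by the square root of F. The software was edgeR 4.0.16, with DESeq2 1.42.0 and limma 3.58.1 for alternatives, under R 4.3.3. The test was tried on simulated data first. Errors of counting and floors do not cover other error.

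The members and lists were chosen with earlier results of these data known. The lists covered the members, further MMPs and Timp4, MMP partners, AP-1 and ETS factors, ERK output genes and markers of tendon fibroblasts, macrophages, osteoclasts, endothelium, skeletal muscle and chondrocytes. Eligible for naming were all members, list genes past the threshold, the most abundant gene of each list, and the 3 genes nearest in profile (Euclidean distance of centred log2 CPM, mean log2 CPM of at least 3) to the strongest riser and faller. One listed MMP partner is not reported here and is left out of its list's counts. Others were named after their values were seen. Promoters are from RefSeq (GRCr8).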

Additional observations from a re-analysis of the deposited data

How the results depend on the processing

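The alternatives were RLE size factors, library totals alone, no filter, a CPM filter (at least 1 CPM in at least 2 libraries), DESeq2, limma-voom, the replicate number as a block, and leaving out each library in turn. Over these, the 9 members gave 99 fold changes, of which 0 reversed, 90 kept their side of the threshold, 8 lost a call and 1 gained one, and the 9 that changed sides all came from leaving out a control. With 1 library left out, the number of changed genes ran from 899 (without control replicate 2) to 4644 (without U0126 replicate 2), against 2792 with all 4. The members called ran from 3 (without control replicate 1) to 8, the further MMPs from 1 to 5, the MMP partners from 2 to 12, and the AP-1 and ETS factors from 3 to 11. A lone library is then assumed to vary like the others, and the cause of these differences was not tested. With all 4 libraries kept, every setting called 8 members. With the replicate block, 2371 genes were called. The deviations of same-numbered libraries had a correlation of -0.03 over 14023 genes, and the labels do not say whether a number marks a shared animal, culture or day, so the numbers were not used as pairs. Depth did not limit the members, but Mmp12, Mmp15 and Timp4 lay at or under 1.19 CPM, and a library with 0 counts allows up to 0.0813 CPM.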
